A study of Homo sapiens with 6 samples.

Results

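The methionine cycle and transsulfuration genes are 10 genes named by symbol: MAT1A, MAT2A, MAT2B, AHCY, MTR, MTRR, CBS, CTH, BHMT and MTAP. A gene was measured here where a row of the deposited table was annotated to that symbol alone, which held for 9 of the 10, among 18404 genes measured in all. Each of the 9 has a single such row. The row of CBS also carries a second symbol, so no value is given to CBS.

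RNA came from BE(2)-C, an established human neuroblastoma line that is a clone of its parent line and carries amplified MYCN. The 2 groups were 3 samples treated with 5 µM BIX01294 for 24 h and 3 samples given 0.05% DMSO, the solvent, for 24 h, and all were grown in DMEM with dialyzed serum. The solvent content of the BIX01294 samples is not given in the labels. BIX01294 inhibits the histone methyltransferases that EHMT2 and EHMT1 encode, which modify lysine 9 of histone H3, and the arrays ask which transcripts differ after the treatment. Each sample was read on 1 Affymetrix array, in log2 units, so a difference of 1 is a doubling of the signal.

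In the methionine cycle, methionine is joined to ATP to make S-adenosylmethionine, the methyl donor of nearly all methyltransferases, histone methyltransferases included. The donated methyl group leaves S-adenosylhomocysteine, which is split to homocysteine. Homocysteine is either methylated back to methionine or passed through transsulfuration, by way of cystathionine, to cysteine, the sulfur amino acid of glutathione. A side branch recovers methionine from methylthioadenosine, the by-product of polyamine synthesis.

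Array medians over all rows ran from 6.94 to 6.98 in BIX01294 and from 6.98 to 7.01 in DMSO. Of adrenergic neuroblastoma, 8 markers were measured, MYCN, TH, DBH and GATA3 among them. The 8 had mean values per array of 11.05 to 11.10 in BIX01294 and 11.10 to 11.12 in DMSO. After treatment 1 marker was higher, ISL1 (log2 change 0.34), and 3 were lower, GATA3 (-0.23), PHOX2A (-0.20) and CHGA (-0.19). Of 8 mesenchymal markers, 2 rose and 1 fell, with array means of 8.09 to 8.18 in BIX01294 and 7.95 to 7.98 in DMSO. VIM (0.82) and CD44 (0.49) rose and TWIST1 (-0.26) fell. The other 5 did not pass, with estimates from -0.01 (COL3A1) to 0.21 (SNAI2). Under the lower quartile of all genes on every array lay 2 of these 8. The same test, given below, called 12.9% of all genes higher and 10.7% lower. The part of the adrenergic and mesenchymal markers in the results below was not tested. Of 8 hepatocyte markers, 5 lay under the lower quartile of all genes on every array.

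BIX01294 was followed by a fall of 2 of the 9 genes, CTH and AHCY, and none of the 9 rose. CTH, which makes cysteine from cystathionine, fell to 35.7% of its DMSO level. AHCY, which splits S-adenosylhomocysteine, fell to 81.3%. The other 7 genes, which make S-adenosylmethionine, remethylate homocysteine or recover methionine from methylthioadenosine, did not pass the test, and their estimates lay between -0.001 and 0.16 on the log2 scale. A gene passed at an adjusted p under 0.05 in limma, a linear model over all 18404 genes with moderated variances and Benjamini-Hochberg adjustment. At an unadjusted p under 0.05, 2 of the 9 were higher and 2 lower, where 18.7% of all genes were higher and 16.2% lower.

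Among all genes 23.6% passed this test, 12.9% higher and 10.7% lower, so the 22.2% of the 9 genes that passed was close to the share of all genes. For CTH, AHCY, MTRR and MTAP, 4 of the 9 genes, the ranges of the groups were apart, as they were for 40.1% of all genes. The median change of the 9 genes was 0.09, beside -0.01 over all genes.

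**Figure D1:**
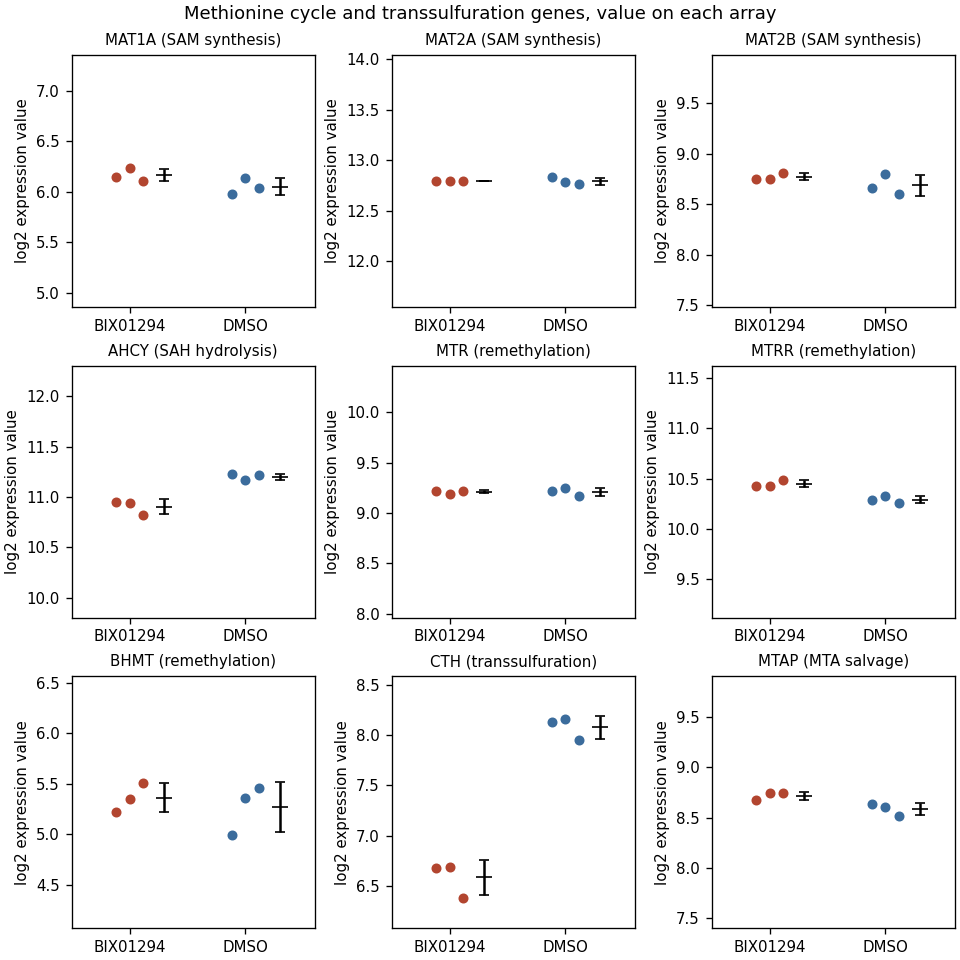
Log2 expression value of each measured gene (vertical axis, the same span of log2 units in every panel) on the 3 BIX01294 arrays (red, left) and the 3 DMSO arrays (blue, right), with the mean and SD of each group as black bars. CTH and AHCY lie lower on every BIX01294 array than on any DMSO array, and MAT2A and MTR lie at the same height in both groups.

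Of the genes of S-adenosylmethionine synthesis, none passed the test. MAT2A encodes the catalytic subunit of the methionine adenosyltransferase used outside the liver. It measured 12.79, 12.80 and 12.80 in BIX01294, against 12.83, 12.78 and 12.76 in DMSO. The 3 BIX01294 values lay within the range of the DMSO values, and the level was at percentile 99.4 of all genes. The change was 0.005 ± 0.051 (SE; adjusted p = 0.963 in limma), with a 95% interval of -0.11 to 0.12.

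MAT2B, the regulatory subunit that binds the MAT2A enzyme, measured 8.75, 8.75 and 8.81 in BIX01294, against 8.66, 8.80 and 8.60 in DMSO. Its groups overlapped, and the change of 0.09 had a 95% interval of -0.07 to 0.24 (adjusted p = 0.422 in limma). MAT1A, the liver form of the catalytic subunit, measured 6.15, 6.23 and 6.11 in BIX01294, against 5.97, 6.14 and 6.03 in DMSO. These values were below the median gene on all 6 arrays and under the lower quartile on 1, and the table holds no detection call, so they were not shown to lie above background. The MAT1A groups overlapped, and the change of 0.11 had a 95% interval of -0.03 to 0.26 (adjusted p = 0.256 in limma).

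AHCY, S-adenosylhomocysteine hydrolase, removes the product that inhibits methyltransferases. It measured 10.95, 10.94 and 10.82 in BIX01294, against 11.22, 11.17 and 11.21 in DMSO. All 3 BIX01294 values lay under the lowest DMSO value. AHCY averaged 10.90 ± 0.07 in BIX01294 and 11.20 ± 0.03 in DMSO (SD, n = 3 each), a change of -0.30 ± 0.059 (SE; adjusted p = 0.00775 in limma), or 1.23-fold lower. It passed in all 15 alternative analyses, with changes of -0.34 to -0.26. RefSeq lists processed pseudogenes of AHCY, and signal shared with such copies cannot be told apart from that of the gene. In bulk RNA such as this, fewer cells with a transcript and less of it per cell cannot be told apart either.

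The genes of remethylation did not pass. MTR, methionine synthase, moves a methyl group from folate to homocysteine by way of cobalamin. It measured 9.22, 9.19 and 9.22 in BIX01294, against 9.22, 9.25 and 9.17 in DMSO. The groups overlapped, and the change was -0.001 ± 0.052 (SE; adjusted p = 0.992 in limma), with a 95% interval of -0.12 to 0.12.

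MTRR, methionine synthase reductase, restores the cobalamin of MTR to its active form. It measured 10.43, 10.43 and 10.49 in BIX01294, against 10.29, 10.33 and 10.26 in DMSO. All 3 BIX01294 values lay above the highest DMSO value. The change of 0.16 ± 0.053 (SE) nevertheless missed the threshold (adjusted p = 0.0672 in limma), with a 95% interval of 0.04 to 0.28. MTRR passed in 4 of 15 alternatives, over which its adjusted p ran from 0.0106 to 0.186. BHMT, the betaine-dependent enzyme of liver and kidney, measured 5.23, 5.35 and 5.51 in BIX01294, against 4.99, 5.36 and 5.46 in DMSO. Every BHMT value was under the lower quartile of all genes on its array, so no change of this gene could be read here (adjusted p = 0.660 in limma).

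**Figure D2:**
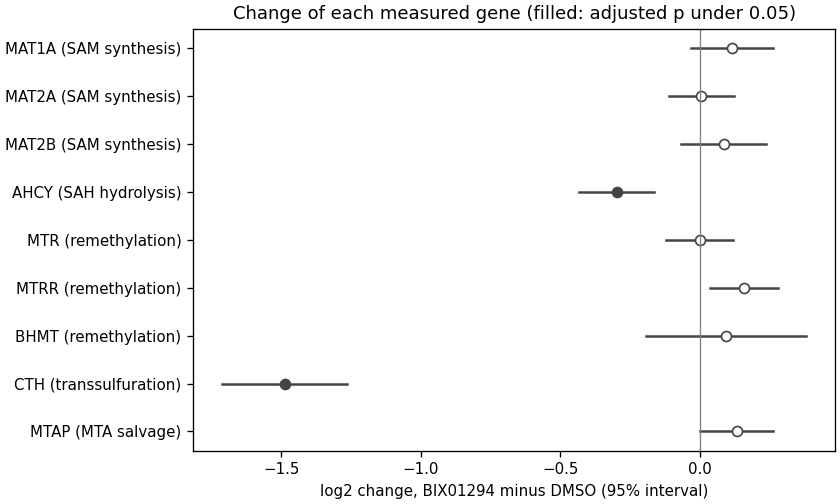
Log2 change, BIX01294 minus DMSO (horizontal axis), of the 9 measured genes in order of their step, with 95% intervals from limma as lines and filled points where the adjusted p was under 0.05. The intervals of CTH and AHCY lie below 0. Those of MTRR and MTAP lie just above 0 with open points, and those of MAT2A and MTR are centred on 0.

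In transsulfuration, CTH had the largest change of the 9 genes. CTH, cystathionine gamma-lyase, cleaves cystathionine to cysteine and also makes hydrogen sulfide, and it is known as a target of the amino acid stress factor ATF4. It measured 6.68, 6.69 and 6.39 in BIX01294, against 8.13, 8.15 and 7.95 in DMSO. The highest BIX01294 value, 6.69, lay well under the lowest DMSO value, 7.95. CTH averaged 6.59 ± 0.18 in BIX01294 and 8.07 ± 0.11 in DMSO (SD, n = 3 each). The change was -1.49 ± 0.097 (SE; 95% interval -1.71 to -1.26; adjusted p = 6.31e-05 in limma), or 2.80-fold lower.

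Among 18404 genes ordered from the largest fall, CTH stood at rank 16. On the DMSO arrays CTH lay above the median gene, and on the BIX01294 arrays below it but above the lower quartile. How much of the remaining BIX01294 signal is background is not known from this table. CTH passed in each of the 14 alternatives that tested it, with changes of -1.56 to -1.39, and it was left out where genes under the median level were removed. Leaving out any 1 array kept the call of CTH and AHCY, with adjusted p up to 0.000513 for CTH and 0.0332 for AHCY.

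The promoter of CTH is shown as the stretch before the start site of the gene with the largest change. RefSeq in GRCh38.p14 places these 250 bases at chr1:70411018-70411267 on the + strand, and capitals mark CG pairs.
CTH: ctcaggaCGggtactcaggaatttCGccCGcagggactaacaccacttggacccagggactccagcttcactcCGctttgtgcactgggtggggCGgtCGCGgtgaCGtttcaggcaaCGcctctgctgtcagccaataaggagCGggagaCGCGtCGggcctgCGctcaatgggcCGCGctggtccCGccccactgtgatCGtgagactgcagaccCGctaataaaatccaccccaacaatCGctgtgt
This window holds 20 CG pairs. Over 35116 promoters of the same length the median is 11 and the quartiles are 3 and 23, so 20 lies between the quartiles. Windows of 300 bases, 250 before and 50 after the start site, were searched on both strands for TGATGNAA, the core of a composite element of ATF4 and C/EBP factors, and for CACGTG, the E-box of MYC and MYCN. MTRR had no promoter in the RefSeq table and was not searched. Of all windows, 3.62% and 7.26% hold TGATGNAA and CACGTG. Neither sequence occurred in any window of the other 9 of the 10 genes, CTH and CBS included. This says only that these letters are not in these windows.

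The values of CTH over the 6 arrays were most like those of TRERF1, ZNF571, NAIP, MTA1 and BPTF, with Pearson correlations of 0.998 or 0.999. These correlations come from 6 points in 2 treatment groups, and 371 genes correlated with CTH above 0.98. Their own changes were smaller than that of CTH, from -0.80 for ZNF571 to -0.17 for BPTF.

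**Figure D3:**
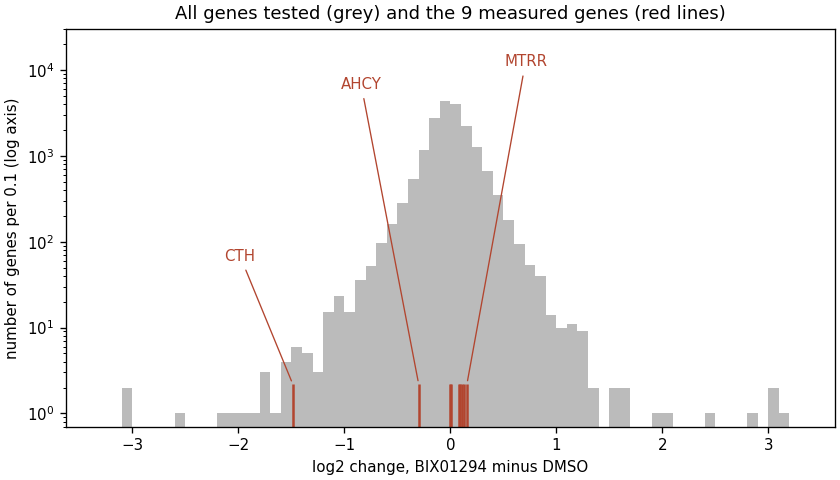
Number of genes (vertical log axis) by log2 change, BIX01294 minus DMSO (horizontal axis, bins of 0.1), for all 18404 genes in grey, with the 9 measured genes as red lines. CTH stands in the lower tail at -1.49, AHCY at -0.30 on the lower shoulder, and the other genes near 0.

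MTAP opens the salvage of methionine by cleaving methylthioadenosine, and its gene lies beside CDKN2A and is often lost with it in tumours. It measured 8.67, 8.74 and 8.74 in BIX01294, against 8.63, 8.60 and 8.52 in DMSO. The level was above the median gene on all 6 arrays. The BIX01294 values all lay above the DMSO values, with a narrow gap between the closest arrays, 8.67 and 8.63. The change of 0.13 ± 0.057 (SE) did not pass (adjusted p = 0.142 in limma), and its 95% interval ran from 0.0004 to 0.26.

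Around these 10 genes, 8 lists of 63 further genes gave 59 measured ones, of which 10 rose and 16 fell. These 26 are 44.1% of the 59, beside 23.6% of all genes (12.9% higher and 10.7% lower), and the lists were written with earlier results known. The remaining 4 listed genes were not analysed here. The median change of the 59 was -0.04. Of the 26 that passed, 12 also passed in every alternative, and none changed direction in any.

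Genes of methionine uptake fell in 5 of 8 cases and none rose. Among all genes 10.7% fell. At an unadjusted p under 0.05, 6 of the 8 were lower and 2 higher, beside 16.2% and 18.7% of all genes. SLC7A5, the exchanger that carries methionine and other large neutral amino acids, measured 10.79, 10.80 and 10.82 in BIX01294, against 11.65, 11.64 and 11.64 in DMSO. That is a change of -0.84 ± 0.049 (SE; adjusted p = 3.76e-05 in limma). Its partner SLC3A2 changed by -0.57, the transporter SLC43A1 by -0.73 and the sodium-coupled SLC38A2 by -0.48. SLC38A1, the fifth, changed by -0.20 and lost its call without BIX01294 replicate 1 or 2 or without any 1 DMSO array (adjusted p up to 0.130 in limma). The 2 groups were apart in all 8 transporters, SLC1A5 among them, where 40.1% of all genes had such groups. SLC7A8 (0.16) and SLC43A2 (0.18) had estimates above 0 that did not pass. SLC43A2 did pass after median centring (adjusted p = 0.0440 in limma) and without genes under the median (0.0242). SLC1A5 (-0.13) did not pass as deposited. It passed as lower after quantile normalization (0.0341), with an intensity trend (0.00828) and without genes under the median (0.0315).

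Among 7 genes of polyamine synthesis or of methylthioadenosine salvage, 4 rose and none fell. At an unadjusted p under 0.05, 5 were higher and 0 lower. Of all genes 12.9% rose, and 18.7% were higher at the unadjusted threshold. AMD1, which decarboxylates S-adenosylmethionine for polyamine synthesis, measured 10.48, 10.49 and 10.51 in BIX01294, against 10.20, 10.19 and 10.04 in DMSO. SRM, spermidine synthase, rose by 0.35 (adjusted p = 0.00354 in limma), as did AMD1 by 0.35 (adjusted p = 0.00502). The salvage enzymes ENOPH1 and ADI1 rose by 0.28 and 0.25. Without BIX01294 replicate 1 or 3 or DMSO replicate 1, AMD1 and SRM alone of this list passed. ADI1 also lost its call without DMSO replicate 2 or 3 (adjusted p up to 0.118), and the highest value for ENOPH1 was 0.0598. SMS, spermine synthase, differed by -0.07 and did not pass.

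Of 10 genes that handle cobalamin or supply remethylation, 2 rose and 4 fell, where 12.9% of all genes rose and 10.7% fell. MMAB, which makes adenosylcobalamin in mitochondria, measured 10.39, 10.36 and 10.24 in BIX01294, against 10.09, 10.01 and 9.92 in DMSO (change 0.33, adjusted p = 0.0104 in limma). The lysosomal cobalamin exporters LMBRD1 and ABCD4 changed by -0.27 and -0.26, and MMUT, methylmalonyl-CoA mutase, by -0.24. Each of these 3 genes lost its call without some single arrays (adjusted p up to 0.131 for LMBRD1, 0.107 for ABCD4 and 0.115 for MMUT in limma). The number of falls was 0 without BIX01294 replicate 2 or 3, 1 without BIX01294 replicate 1 or DMSO replicate 1 or 2, and 3 without DMSO replicate 3. The number of falls was also 0 after each array was centred on its median and when all rows of the table were tested. The second rise, that of the cobalamin receptor CD320 (0.22), was lost without BIX01294 replicate 1 or 2 or DMSO replicate 1 or 2 (adjusted p up to 0.0745). MMAB passed throughout.

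Of 6 genes that control or move S-adenosylmethionine, 2 fell and none rose, with 3 lower and 0 higher at an unadjusted p under 0.05. Of all genes, 10.7% fell and 16.2% were lower at the unadjusted threshold. SAMTOR, the S-adenosylmethionine sensor of the mTORC1 pathway, measured 8.02, 7.90 and 8.01 in BIX01294, against 8.23, 8.42 and 8.25 in DMSO (change -0.32, adjusted p = 0.0124 in limma). CPSF6, of the complex that forms mRNA 3′ ends, changed by -0.21 and lost its call without any 1 BIX01294 array or DMSO replicate 1 or 2 (adjusted p up to 0.105). METTL16, which methylates the MAT2A transcript, differed by 0.14 and did not pass (adjusted p = 0.246). Of the hydrolase-like genes, AHCYL2 changed by -0.25 and AHCYL1 by -0.11. Only AHCYL2 passed, and it did not without any 1 BIX01294 array or DMSO replicate 1 or 2 (adjusted p up to 0.128).

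Downstream of cysteine, 3 of 8 genes of cysteine breakdown and sulfide oxidation fell and none rose, with 4 lower and 0 higher at an unadjusted p under 0.05, beside 10.7% of all genes that fell and 16.2% lower at the unadjusted threshold. GOT1, the cytosolic aspartate aminotransferase, measured 11.72, 11.60 and 11.60 in BIX01294, against 12.26, 12.14 and 12.15 in DMSO (change -0.55, adjusted p = 0.000726 in limma). ETHE1, the mitochondrial persulfide dioxygenase, changed by -0.31 (adjusted p = 0.00913). SUOX, sulfite oxidase, changed by -0.23 and lost its call without BIX01294 replicate 1 or 3 or DMSO replicate 1 or 3 (adjusted p up to 0.0978). CDO1 and SQOR lay under the lower quartile on every array.

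Arginine methyltransferases use S-adenosylmethionine. Of 11 genes of these enzymes and of their cofactors, 4 rose and 1 fell, where 12.9% of all genes rose and 10.7% fell. WDR77, the partner of PRMT5, measured 10.39, 10.42 and 10.37 in BIX01294, against 9.73, 9.84 and 9.64 in DMSO (change 0.65, adjusted p = 0.000383 in limma). PRMT6 rose by 0.45 (adjusted p = 0.00566). PRMT2 (0.31) and PRMT1 (-0.20) also passed, but lost their calls without some single arrays. PRMT5 (0.17, adjusted p = 0.0464) lost its call without any 1 of the 6 arrays (adjusted p up to 0.119), with estimates of 0.15 to 0.19. The number of rises was 3 without BIX01294 replicate 3 or DMSO replicate 2, and 2 without BIX01294 replicate 1 or 2 or DMSO replicate 1 or 3, and PRMT1 kept its call without BIX01294 replicate 2 alone among the arrays. The adjusted p of PRMT2 then ran up to 0.0760 and that of PRMT1 up to 0.134. Of 7 small-molecule methyltransferases, 0 passed in limma, with 1 higher and 1 lower at an unadjusted p under 0.05, near the 18.7% and 16.2% of all genes. The largest estimate was that of GAMT, which makes creatine, at -0.24 (adjusted p = 0.0578). GAMT passed in 4 of 15 alternatives, among them that without DMSO replicate 1 (-0.31, adjusted p = 0.0261).

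**Figure D4:**
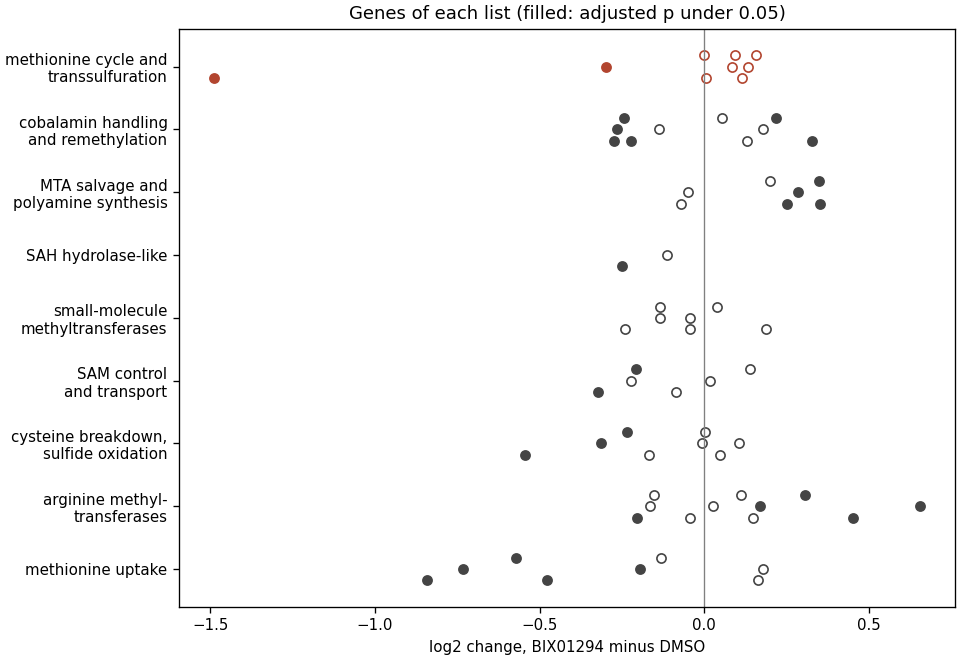
Log2 change, BIX01294 minus DMSO (horizontal axis), of each measured gene of the methionine cycle and transsulfuration (red) and of 8 lists around it (black), filled where the adjusted p was under 0.05. MTA is methylthioadenosine, SAM S-adenosylmethionine and SAH S-adenosylhomocysteine, and vertical offsets within a list only separate points. The filled points of methionine uptake lie below 0 and those of MTA salvage and polyamine synthesis above 0.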

How the data were processed

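Total RNA of 6 BE(2)-C samples, 3 per group, was read on Affymetrix arrays. Per the labels, the deposited table gives 1 expression value per row and array. The range of the deposited values shows a log2 scale. Partek is the only tool in the submitters' processing notes, and the normalization is not given in the sources used here. With no detection call, the number of arrays and unknown background limit the precision. Of 32321 rows, 19158 carried 1 gene symbol, 1388 several and 11775 none in the platform annotation used. For a gene with several rows, the row with the highest mean was kept. Groups came from the sample titles. The values were tested with limma 3.58.1 in R 4.3.3, with treatment as its only term, two-sided, with Benjamini-Hochberg adjustment over 18404 genes, and the code was tested on simulated data. The series design text calls the samples independent without naming separate cultures. The error term behind the p-values therefore rests on variation between these samples, which may not be separate cultures.

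The members and lists were chosen with earlier results of these data known. All members are named, and in each list up to 4 genes past the test with the largest changes, or the largest estimate where none passed. Other genes were named after their values were seen (SLC38A1, SLC7A8, SLC43A2, SMS, METTL16, AHCYL1, CDO1, SQOR, SLC1A5, CD320, PRMT5). Alternatives were quantile normalization, median centring, leaving out dim genes at 2 levels, averaging the rows of a gene, an intensity trend, array weights, a replicate block, all rows, and each array left out. Same-numbered arrays had correlated deviations of 0.193, -0.176 and 0.055 (replicates 1, 2 and 3), so the numbers were not taken as pairs.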

Additional observations from a re-analysis of the deposited data

How the results depend on the processing

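CTH and AHCY kept their direction and call in every alternative that tested them. The count of genes of the 10 that rose was 1 after median centring, 1 without genes under the lower quartile, 1 with an intensity trend and 2 without genes under the median, against 0 as deposited. The added gene was MTRR in each, and MTAP beside it in the last. The count that fell was 1 without genes under the median, which left out CTH by construction, and 2 in all other alternatives. The cause of the other differences was not tested. Leaving out each array gave 0 rises and 2 falls every time. Estimates near 0 changed sign without passing: MTR was 0.032 after median centring and -0.023 to 0.015 without single arrays, MAT2A was -0.0035 with array weights and -0.011 to 0.024 without single arrays, and BHMT was -0.045 to 0.19 without single arrays.

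With the replicate block, 1987 genes were higher and 1654 lower, against 2379 and 1970 without it, and the counts of 0 rises and 2 falls among the 9 genes stayed. The block left 1 rise and 2 falls among the 10 cobalamin and remethylation genes, against 2 and 4 without it. Without single arrays, 1699 to 1910 genes were higher and 1318 to 1818 lower. Of all genes past the test, 54.7% were higher as deposited, 49.7% after quantile normalization and 64.3% after median centring, which moved the median of all genes from -0.006 to 0.03. Dim genes, BHMT and MAT1A here, limit what can be seen, since background is unknown.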

Other observations

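The genes next to CTH and AHCY on their chromosomes, in the order of the RefSeq table and among measured genes, were chosen after the values of CTH and AHCY were seen. Of these 12 neighbours 3 passed, or 25%, close to the 23.6% of all genes. Of the 3 neighbours on each side of CTH, 1 rose and none fell. ANKRD13C rose by 0.30 (adjusted p = 0.0305 in limma), while the largest estimate was that of MIR186, at -0.37, which did not pass (adjusted p = 0.0640) although its groups did not overlap. PTGER3, a prostaglandin receptor, differed by 0.08 and SRSF11, a splicing factor, by -0.11, and neither passed. Of the neighbours of AHCY, 2 of 6 fell and none rose. EIF2S2, the beta subunit of the initiation factor eIF2, averaged 10.45 ± 0.07 in BIX01294 and 10.74 ± 0.07 in DMSO (SD, n = 3 each), a change of -0.29 (adjusted p = 0.0126 in limma), and MAP1LC3A, an autophagy protein, changed by -0.20 (adjusted p = 0.0391).

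The row annotated to both CBS and LOC102724560 cannot be assigned to either. It measured 10.73, 10.76 and 10.62 in BIX01294, against 10.89, 10.84 and 10.84 in DMSO, so that the groups did not overlap. In a limma fit over all 32321 rows its change was -0.15 ± 0.059 (SE), which did not pass (adjusted p = 0.155).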
